A study of Bos taurus with 8 samples.

Results

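The contractile smooth-muscle-type cytoskeleton genes were followed as a set of 10 genes, namely ACTA2, MYH11, MYL9, TPM1, TPM2, TAGLN, CNN1, CALD1, LMOD1 and TGFB1I1. They were found by symbol in the deposited table of 28709 genes, and each symbol matched a single row. The material was BUTE cells, an immortalized line of uterine epithelial cells from a Holstein cow, labelled wild type. For 24 h all cells were deprived of serum and steroids, with insulin-like growth factor 1 in the medium. They then received either the vehicle DMSO (4 libraries) or 10 µM progesterone (4 libraries) for 24 h, both with the growth factor at 50 ng/ml. Nothing in the labels ties the libraries of a group to separate cultures, so p-values measure the spread between these libraries, which may be technical. Because this is 1 immortalized line, the results describe that line under these culture conditions.

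Smooth muscle contracts when myosin filaments pull on actin filaments, and phosphorylation of the regulatory light chain switches the myosin on. Tropomyosin, caldesmon, calponin and transgelin lie along the actin filament and set its stability and its access for myosin. Many of these genes are also transcribed in cultured epithelial and stromal cells, where they belong to stress fibres, and serum response factor (SRF) with its myocardin-related cofactors (MRTF) drives many of them. Smooth muscle myosin heavy chain (MYH11) is more restricted to differentiated smooth muscle. TPM1, TPM2 and CALD1 each give rise to several splice forms in muscle and other cells, and the table sums them per gene.

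Libraries held between 23810841 and 32509792 rounded estimated counts, and totals overlapped between the groups. Library names follow the column headings, which read R1, R3, R7 and R9 for DMSO and R1, R2, R3 and R6 for progesterone; the labels do not say which sample each heading stands for. DMSO R7 and R9 stood apart. Across genes their log2 CPM correlated at 0.936 to 0.954 with the other 6 libraries, which correlated with each other at 0.981 or more. The fold changes of the tested contractile genes are therefore given with all 8 libraries and again without these 2, as are those of related genes. CPM below is counts per 1000000, scaled by TMM (trimmed mean of M values) factors. CPM was not divided by transcript length, so it was compared between libraries and not between genes.

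The epithelial label was checked against 10 epithelial markers. The keratins KRT8 and KRT19 were at 1348 to 2789 and 255 to 706 CPM over the 8 libraries, and the epithelial cadherin CDH1 at 10.5 to 22.7 CPM. The adhesion molecule EPCAM stayed at 2.53 CPM or below, KRT18 at 6.92 or below, and the tight junction genes CLDN3 and CLDN4 at 0.238 or below. Of genes usually taken as fibroblast markers, the collagen COL1A2 was abundant, at 2970.4 to 6652 CPM. COL1A1 was at 1516 to 6553.5 CPM, DCN at 268 to 962 and LUM at 92.2 to 174. COL3A1 was at 72.8 to 342 CPM, PDGFRA at 14.2 to 27.9, THY1 at 15.2 to 24.8 and PDGFRB at 2.21 to 8.16. The label was thus met by some of its defining markers and not by others.

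With all 8 libraries, 1 of the 9 contractile genes that could be tested fell with progesterone and none rose. The test was edgeR's quasi-likelihood test, with p adjusted by Benjamini and Hochberg's method over 13557 genes and called below 0.05. The gene that fell was TPM1. Over all genes tested, 2.65% passed, 1.69% as higher and 0.959% as lower, so the contractile genes' share rests on a single gene. An unadjusted p under 0.05 was found for 3 of the 9, TPM1, TAGLN and LMOD1, against 26.8% of all genes. The median log2 fold change of the 9 was -0.10, against -0.01 over all genes, and 7 of 9 lay below 0, against 51% of all genes (7 of 9 and 48% without DMSO R7 and R9). The median size of their change, whatever its direction, was 0.12 on the log2 scale, against 0.21 for all genes. Without DMSO R7 and R9, none of the 9 passed in edgeR, with an unadjusted p under 0.05 for 3 (TPM1, CNN1 and LMOD1). Of the 13764 genes tested there, 1.18% passed and 15.9% had an unadjusted p under 0.05. With all libraries DESeq2 called 3 of the 9 and 13.5% of all genes, and limma voom called 0 of the 9 and 2.04% of all genes.

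**Figure D1:**
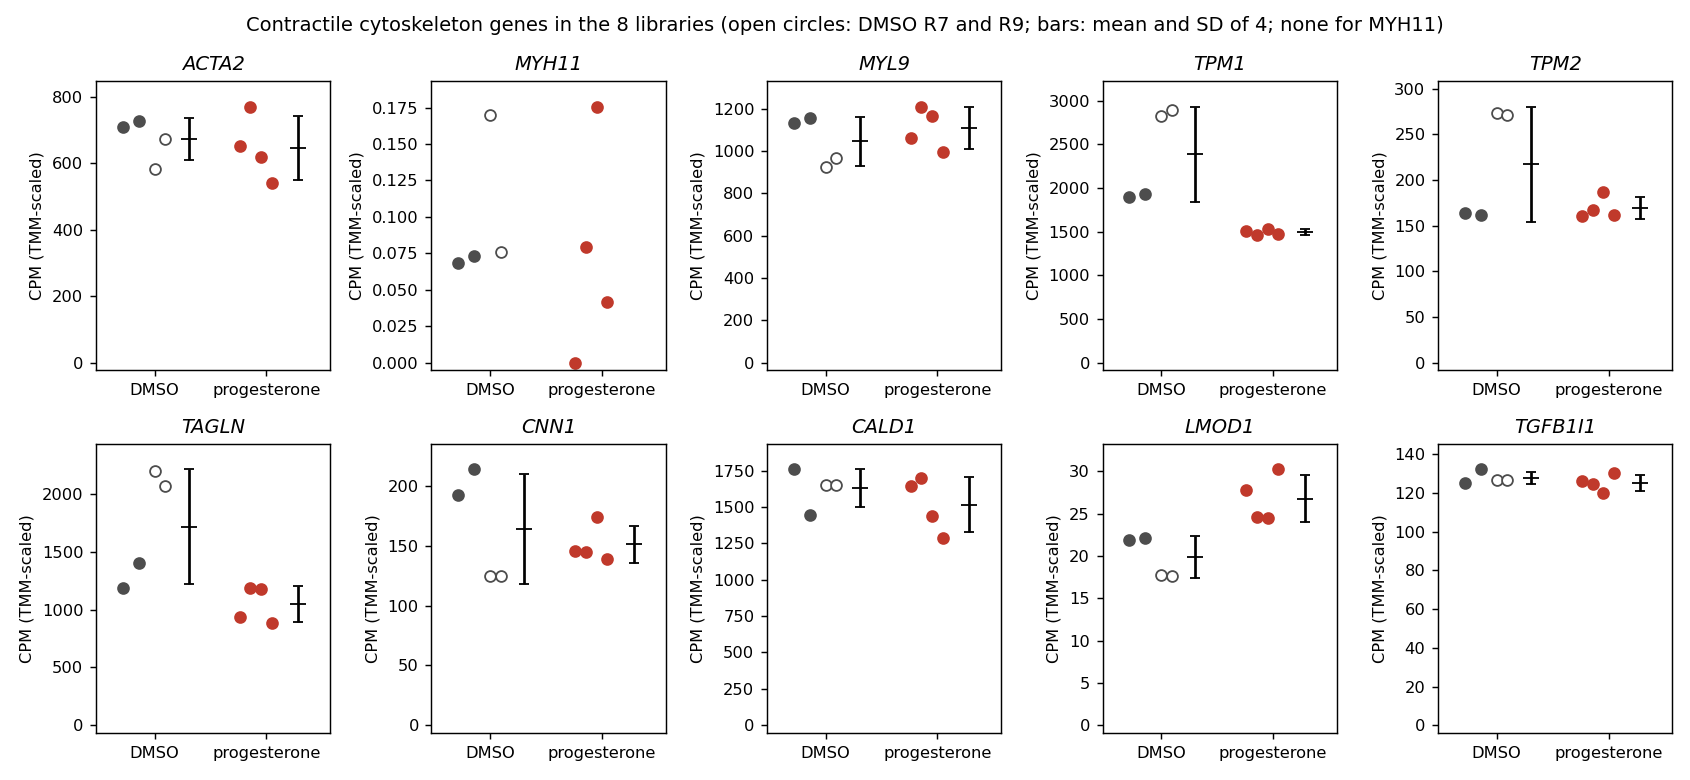
TMM-scaled CPM (vertical axes, starting just below 0) of the 10 contractile genes in the 4 DMSO (grey) and 4 progesterone (red) libraries, with mean and SD beside the points except for MYH11. Open circles are DMSO R7 and R9; TPM1 is the panel in which the 4 progesterone values (1457 to 1532 CPM) lie below all 4 DMSO values, and LMOD1 the panel in which they lie above.

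ACTA2 (Entrez Gene 515610, chromosome 26) encodes the smooth muscle alpha actin of stress fibres and contractile filaments. Its CPM was 711, 726, 584 and 672 in DMSO R1, R3, R7 and R9. In progesterone R1, R2, R3 and R6 it was 654, 771, 618 and 542. The groups overlapped, and both the highest and the lowest value came from progesterone libraries. Means were 673 ± 63.7 and 646 ± 95.2 CPM (SD, n = 4 each). The log2 fold change was -0.06 with a 95% interval of -0.33 to 0.21 (edgeR adjusted p = 0.777), and -0.14 without R7 and R9 (-0.42 to 0.14). The value of TPM1 with all libraries, -0.67, lies outside the first interval, while its value without R7 and R9, -0.34, lies inside the second. Leaving out progesterone R6, the lowest library, turned the sign to 0.02.

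MYH11 (530050, chromosome 25), the smooth muscle myosin heavy chain, was at the limit of detection. Rounded counts were 2, 2, 5 and 2 with the vehicle. With progesterone they were 0, 2, 5 and 1. It was below the expression filter and was not tested, and no fold change is given. The count of 0 in progesterone R1 allows up to 0.0917 CPM, taking 3 counts as the limit and counting error alone. At this depth no difference was detectable. In the reference gene table its model overlaps that of NDE1, and the sources used here do not state that counting used the strand.

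MYL9 (505964, chromosome 13) encodes the regulatory light chain of smooth muscle and stress-fibre myosin. It was at 1133, 1155, 926 and 968 CPM with DMSO, and with progesterone at 1060.0, 1209.7, 1166 and 994 CPM. DMSO R7 and R9 were lower than every other library, and the other 6 values overlapped between the treatments. The log2 fold change was 0.08 (95% interval -0.16 to 0.32, edgeR adjusted p = 0.647). Without R7 and R9 it was -0.03 (-0.27 to 0.20).

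TPM1 (281544, chromosome 10) encodes a tropomyosin, the coiled-coil protein that runs along actin filaments and governs access for myosin. It stood at 1896 CPM in DMSO R1, 1925 in R3, 2821 in R7 and 2892 in R9. With progesterone the 4 libraries lay close together, at 1510.1, 1457, 1532 and 1476 CPM. Every progesterone value was below every DMSO value, and within DMSO the libraries R7 and R9 were far above R1 and R3. From 2383 ± 547 to 1494 ± 34.0 CPM (SD, n = 4 each), TPM1 fell 1.60-fold (-0.67 ± 0.15 SE on the log2 scale, 95% interval -1.01 to -0.34, edgeR adjusted p = 0.0479). The DMSO mean of R1 and R3 alone was 1910.5 CPM, and without R7 and R9 TPM1 was 1.27-fold lower (log2 value -0.34 ± 0.09 SE, adjusted p = 0.0996 in edgeR), which did not pass. The groups did not overlap there either, which was fixed in advance, since leaving libraries out cannot create overlap. The call was close to the threshold and was also lost when DMSO R7 (edgeR adjusted p = 0.129) or DMSO R9 (0.119) was left out, and when progesterone R1 (0.102), R2 (0.141), R3 (0.109) or R6 (0.127) was. In these 6 cases the log2 fold change stayed between -0.68 and -0.57. Over all genes, 42 to 82 passed in them, against 359 with all libraries. The TPM1 call held without DMSO R1 (edgeR adjusted p = 0.0181) or R3 (0.0353), where 1782 and 795 genes passed.

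TPM2 (497015, chromosome 8), the beta tropomyosin, had another pattern. It was at 164, 162, 273 and 271 CPM with DMSO, and with progesterone at 161, 167, 187 and 162 CPM. DMSO R7 and R9 stood above all others, while R1 and R3 lay within the range of the progesterone libraries. The log2 fold change of -0.36 (95% interval -0.76 to 0.04, edgeR adjusted p = 0.227) became 0.07 (-0.13 to 0.27) without R7 and R9.

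TAGLN (513463, chromosome 15) encodes transgelin, an actin-bundling protein and an early marker of smooth muscle differentiation. It was at 1186, 1402, 2203 and 2071 CPM with DMSO, and with progesterone at 940.0, 1188, 1175 and 885 CPM. R7 and R9 were again highest. The groups overlapped only through DMSO R1 and progesterone R2, which were 1186.4 and 1187.8 CPM. The log2 fold change was -0.71 ± 0.20 SE (edgeR adjusted p = 0.0749), which did not pass although it was the lowest of the 9. It was -0.29 ± 0.14 without R7 and R9 (0.333). Without DMSO R1 alone it passed, at -0.85 (edgeR adjusted p = 0.0214). In that fit 1782 of 13700 genes passed, against 359 of 13557 with all libraries.

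CNN1 (534583, chromosome 7) encodes calponin, which binds actin and slows myosin cycling. DMSO R1 and R3 were highest, at 192 and 214 CPM, and DMSO R7 and R9 were lowest, both at 125 CPM. The progesterone libraries, at 146, 145, 174 and 139 CPM, lay between these pairs. With all libraries the log2 fold change was -0.12 (95% interval -0.52 to 0.28, edgeR adjusted p = 0.694), and it was 0.04 when DMSO R3 was left out. Against R1 and R3 alone CNN1 did not overlap between the groups and was 1.33-fold lower in the progesterone libraries (-0.41 ± 0.10 SE on the log2 scale), with an edgeR adjusted p of 0.0848 that did not pass. In that comparison 3 of the 9 contractile genes were without overlap, 2 of them lower, against 26.8% of all genes, 13.9% lower.

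CALD1 (281660, chromosome 4) encodes caldesmon, which ties actin to myosin and inhibits the myosin ATPase. Values were 1759, 1448, 1653 and 1654 CPM with DMSO, and 1642, 1696, 1439 and 1289 CPM after the hormone, with broad overlap. The log2 fold change was -0.10 (95% interval -0.35 to 0.15) and, without R7 and R9, -0.07 (-0.36 to 0.23).

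LMOD1 (532090, chromosome 16), the smooth muscle leiomodin, nucleates actin filaments. It was at 21.8, 22.1, 17.7 and 17.7 CPM with DMSO, and with progesterone at 27.8, 24.7, 24.4 and 30.2 CPM. All 4 progesterone libraries were above all 4 DMSO libraries, opposite to TPM1. Means were 19.8 ± 2.49 and 26.8 ± 2.76 CPM (SD, n = 4 each), a log2 fold change of 0.43 ± 0.12 SE with an edgeR adjusted p of 0.0736, which did not pass. It was 0.30 ± 0.12 without R7 and R9 (0.254), where leaving libraries out could not create overlap. Without DMSO R1, where 1782 of 13700 genes passed, it passed too, at 0.48 (edgeR adjusted p = 0.0413). In the reference table a long noncoding RNA model overlaps LMOD1, with the same limit as for MYH11.

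TGFB1I1 (515834, chromosome 25) encodes a focal adhesion adaptor of the paxillin family that is induced by transforming growth factor beta. It lay between 119.9 and 132 CPM in all 8 libraries, at 128 ± 3.08 with DMSO and 125 ± 4.28 with progesterone (SD, n = 4 each). Its log2 fold change of -0.03 (95% interval -0.18 to 0.12) had the narrowest interval of the 9, and it was -0.03 (-0.21 to 0.16) without R7 and R9. R7 and R9, both at 127 CPM, did not stand apart at this gene.

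TPM1 and LMOD1 were the 2 of 9 contractile genes without overlap between the groups, 1 lower and 1 higher, against 16.2% of all genes tested, 8.22% lower and 7.95% higher. The small changes of ACTA2, MYL9, CALD1 and TGFB1I1 were within the spread of the libraries. All 9 had at least 467 counts in every library, so counting error was small.

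**Figure D2:**
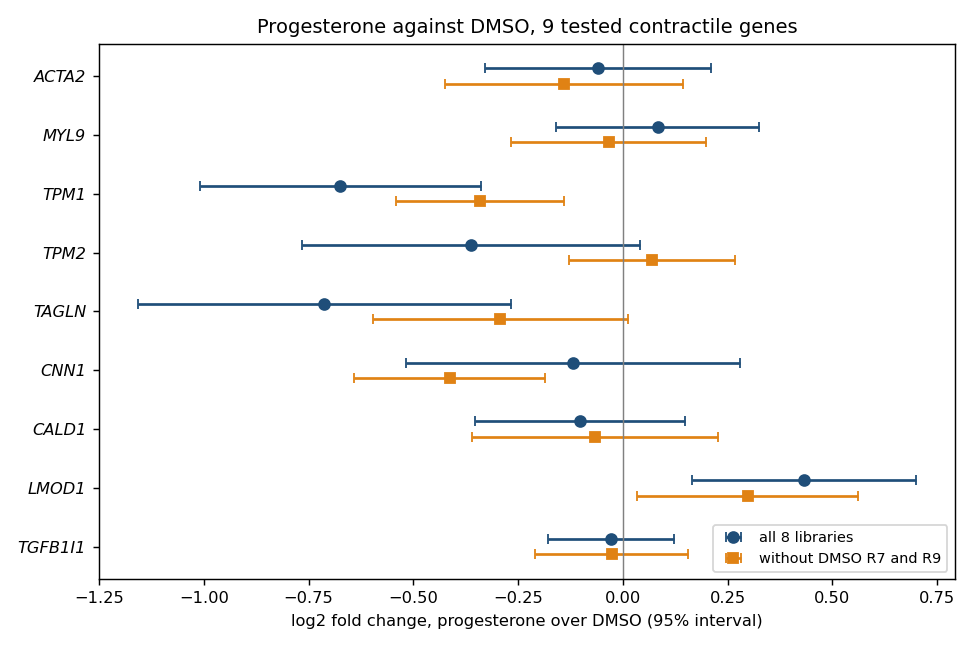
Log2 fold change of progesterone over DMSO (horizontal axis) with 95% intervals for the 9 tested contractile genes, with all 8 libraries (circles) and without DMSO R7 and R9 (squares). TPM1 moved from -0.67 to -0.34, TPM2 from -0.36 to 0.07 and TAGLN from -0.71 to -0.29, all towards or past 0, while CNN1 moved from -0.12 to -0.41.

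DMSO R7 and R9 split the contractile genes in opposite directions. TPM1, TPM2 and TAGLN were higher in both of these libraries than in any of the other 6, and CNN1, MYL9 and LMOD1 were lower in both than in any other. Over all genes tested, 25.2% had R7 and R9 above the other 6 libraries and 24% below, so a split of 3 and 3 among 9 genes is near that of the table as a whole. Compared with the mean of DMSO R1 and R3, the mean of R7 and R9 was 67.1% higher for TPM2, 65.1% higher for TAGLN and 49.5% higher for TPM1. For CNN1 it was 0.615 times that of R1 and R3, for LMOD1 0.804 times and for MYL9 0.828 times. These ratios describe 2 libraries against 2 that were set apart by their own values, and they carry no test. Set against the same mean of R1 and R3, the mean of the progesterone libraries lay on the other side than R7 and R9 for TPM1, TAGLN and LMOD1, and on the same side for CNN1, MYL9 and TPM2.

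**Figure D3:**
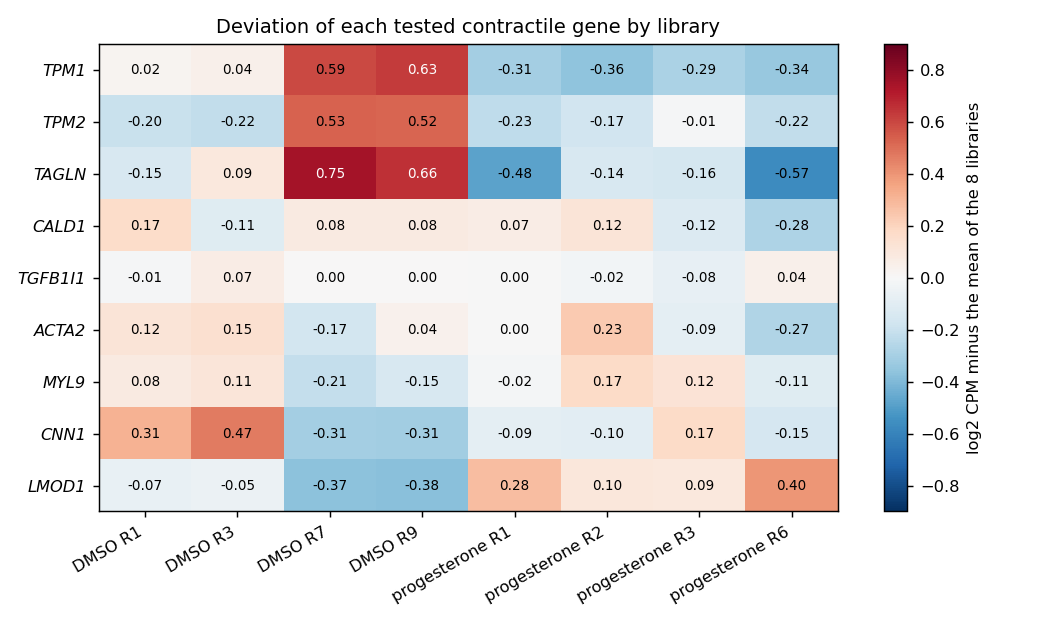
Log2 CPM of each tested contractile gene (rows) minus its mean over the 8 libraries, by library (columns; red above, blue below the mean). For TPM1, TPM2 and TAGLN the deviation was 0.53 to 0.75 in R7 and 0.52 to 0.66 in R9, and for LMOD1 it was -0.37 and -0.38; progesterone R6 was lowest for TAGLN at -0.57.

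Together the 10 genes took 0.733% to 0.852% of the estimated counts in the DMSO libraries and 0.573% to 0.685% in the progesterone libraries. This sum is carried by the genes with the most counts, TPM1, CALD1 and TAGLN among them, and is given with no test. The lowest share was in progesterone R6, which was also lowest for ACTA2, MYL9, TAGLN, CNN1 and CALD1 among the progesterone libraries.

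Each gene was also set beside its family, as the share of the family's estimated counts within a library, which no scaling between libraries can change. These shares are not per transcript length, so only their movement between libraries is read. TPM1 took 38.2%, 37.8%, 40.7% and 38.8% of the counts of TPM1 to TPM4 in the DMSO libraries. In the progesterone libraries it took 35.0%, 33.2%, 35.7% and 35.0%, without overlap. R1 and R3, as well as R7 and R9, were above every progesterone library. TPM2 took 3.17% to 3.94% with DMSO and 3.73% to 4.37% with progesterone. The tropomyosin TPM4 was itself at 2692 ± 528 CPM with the vehicle and 1954 ± 75.5 CPM with progesterone (SD, n = 4 each) and did not pass (log2 fold change -0.46, edgeR adjusted p = 0.0808). DMSO R7 and R9 were its highest libraries, and without them its log2 fold change was -0.20.

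LMOD1 took 17.5% and 17.3% of the counts of the leiomodins and tropomodulins in DMSO R1 and R3, and 11.7% and 11.4% in R7 and R9. With progesterone it took 18.1% to 23.8%, also without overlap, though R1 and R3 were close to the lowest progesterone library. TAGLN took 47.2% and 49.2% of the transgelin counts in DMSO R1 and R3, 66.7% and 65.6% in R7 and R9, and 42.4% to 48.8% with progesterone. CNN1 took 15.7% and 17.1% of the calponin counts in R1 and R3, 12.0% and 11.8% in R7 and R9, and 11.1% to 13.2% with progesterone. Its counterpart CNN3 was at 446 ± 21.3 and 540 ± 41.1 CPM (SD, n = 4 each), a log2 fold change of 0.27, with and without R7 and R9, that did not pass (edgeR adjusted p = 0.0946 with all libraries). For ACTA2 the share of actin counts overlapped, at 5.56% to 7.74% with DMSO and 6.39% to 8.33% with progesterone. Reads of near-identical actins are divided by a model, which makes this share less certain. TGFB1I1 also overlapped, at 34.0% to 38.0% and 37.6% to 43.7% of the counts of TGFB1I1, PXN and LPXN.

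**Figure D4:**
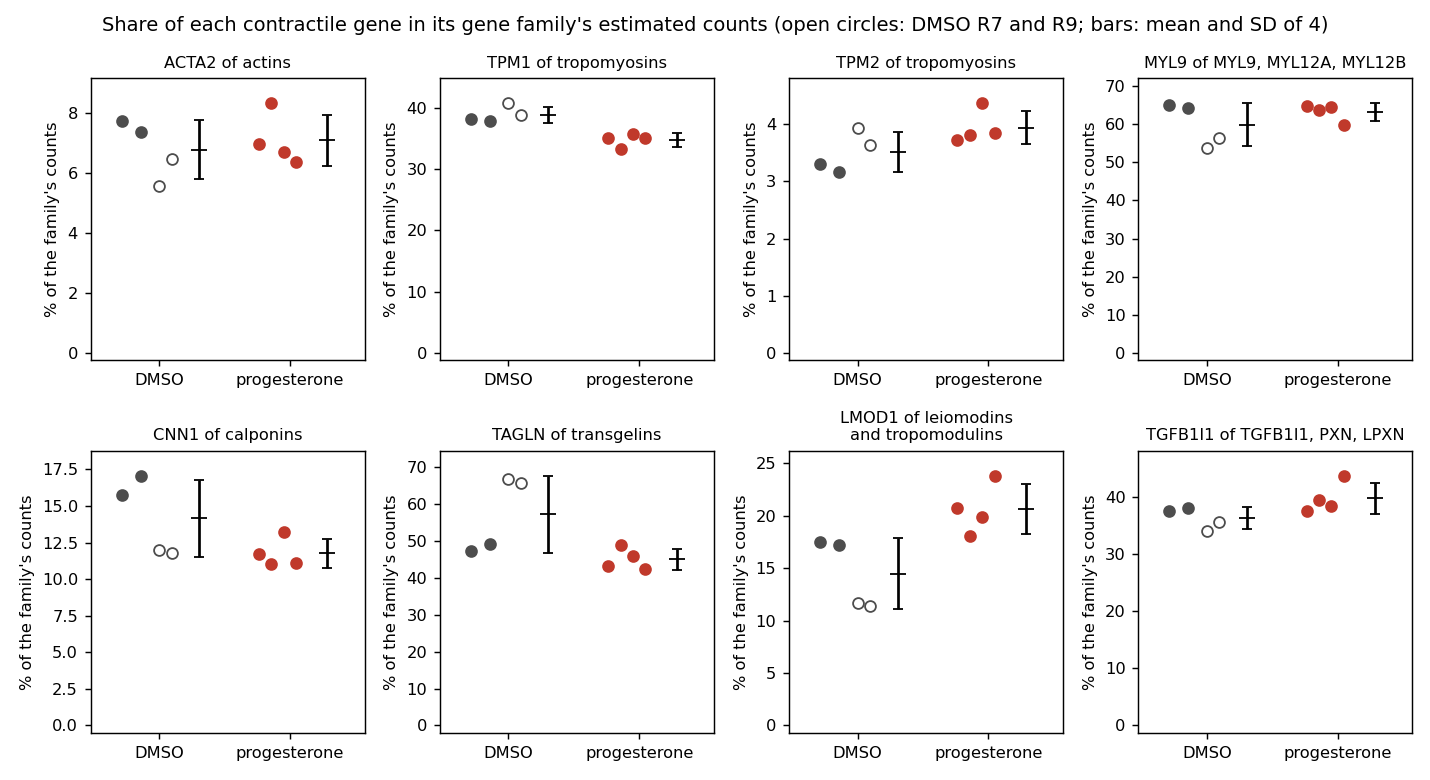
Share of 8 contractile genes in the estimated counts of their gene family (vertical axes in percent, starting just below 0) for the 4 DMSO (grey) and 4 progesterone (red) libraries, with mean and SD; open circles are DMSO R7 and R9. The groups are apart for TPM1 (38.9% ± 1.30 and 34.8% ± 1.09) and for LMOD1 (14.5% ± 3.37 and 20.6% ± 2.39). For LMOD1, DMSO R1 and R3 (17.5% and 17.3%) lie close below the lowest progesterone library (18.1%). TAGLN differs mainly between R7 and R9 and the other DMSO libraries. For CNN1, DMSO R1 and R3 lie above R7, R9 and every progesterone library.

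MYL9 was set beside MYL12A and MYL12B, the regulatory light chains of nonmuscle myosin. It took 65.0% and 64.2% of the 3 genes' counts in DMSO R1 and R3, 53.8% and 56.4% in R7 and R9, and 59.9% to 64.7% with progesterone. Of 24 family counterparts, 20 were tested. MYL12B rose and 19 did not pass, and 8 had an unadjusted p under 0.05, against 26.8% of all genes. Without R7 and R9 none of the 20 passed in edgeR, and 5 had an unadjusted p under 0.05, against 15.9% of all genes. MYL12B (614055, chromosome 24) was at 32.5, 27.1, 22.0 and 19.2 CPM with DMSO, and with progesterone at 38.3, 45.0, 45.6 and 55.1 CPM, without overlap. It rose 1.82-fold (log2 value 0.87 ± 0.17 SE, adjusted p = 0.0331 in edgeR). In the comparison without R7 and R9 the value was 0.64, short of the threshold (0.0671). The call was also lost when DMSO R7 or R9 was left out (edgeR adjusted p = 0.0958 and 0.0803). It held without DMSO R1 (0.0104) or R3 (0.0394), where 1782 and 795 genes passed in all. Leaving out a progesterone library gave 0.0665 (R1), 0.0978 (R2), 0.0852 (R3) or 0.101 (R6). In the fits with 1 library left out that lost the call, 42 to 82 genes passed in all, against 359 with all libraries. MYL12A and MYL12B are near-identical, so the division of their reads is uncertain; MYL12A had a log2 fold change of -0.17, and of 0.02 without R7 and R9. The nonmuscle heavy chains MYH9 and MYH10 had log2 fold changes of -0.50 and -0.68 and did not pass (edgeR adjusted p = 0.0718 and 0.110), and PXN and ACTG1 were at -0.24 and -0.23. All 4 were highest in DMSO R7 and R9. Without these libraries MYH9 was at -0.24, MYH10 at -0.12, PXN at -0.14 and ACTG1 at -0.04.

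Other genes of the contractile apparatus came from a list of 15, of which 14 were tested. PPP1R14A rose and 13 did not pass, with an unadjusted p under 0.05 for 5, against 26.8% of all genes. PPP1R14A (615348, chromosome 18) encodes an inhibitor of myosin light chain phosphatase. It was at 25.0, 24.9, 22.2 and 16.3 CPM with DMSO, and with progesterone at 37.6, 45.0, 47.3 and 43.6 CPM. Every progesterone library was above every DMSO library, and R1 and R3 were the DMSO libraries closest to them. The increase was 1.96-fold (log2 value 0.97 ± 0.14 SE, adjusted p = 0.0140 in edgeR), and 1.75-fold without R7 and R9 (0.81 ± 0.11 SE, 0.00855). The call was lost when progesterone R2 or R6 was left out (edgeR adjusted p = 0.0519 and 0.0528), at an unchanged log2 fold change of 0.97. In these fits 48 and 53 genes passed in all, against 359 with all libraries.

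SRF and its cofactors act on many contractile genes, and the list that holds them also held other regulators, such as SCAI and KLF4. Of 9 genes, 8 were tested and none passed in edgeR. An unadjusted p was under 0.05 for 3, with a call by DESeq2 for 1 and by voom for 0. Over all genes these shares were 26.8%, 13.5% and 2.04%. SRF was at 82.6 ± 5.83 CPM with the vehicle and 78.1 ± 4.76 CPM with progesterone (SD, n = 4 each; log2 fold change -0.08, edgeR adjusted p = 0.550, and -0.01 without R7 and R9). The smallest p was that of ELK1, an SRF partner of growth factor signalling, at 60.9 ± 4.09 and 77.5 ± 5.60 CPM (log2 fold change 0.35 and 0.34 without R7 and R9, adjusted p = 0.0611 and 0.112); it passed without DMSO R1 (0.0420). ELK4, another such partner, followed with a log2 fold change of 0.31 (0.172), and of 0.22 without R7 and R9 (0.461). MYOCD, the smooth muscle cofactor of SRF, was below the filter and not tested. It was at 5.94 and 5.11 CPM in DMSO R7 and R9 and at 0.205 to 0.595 CPM in the other 6 libraries.

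Of 12 other targets of MRTF and SRF, none passed in edgeR. Unadjusted p was under 0.05 for 8, against 26.8% of all genes. DESeq2 called 5, against 13.5% of all genes, and voom called 0, against 2.04%. The median log2 fold change of the 12 was -0.41 over the 8 libraries and -0.10 when R7 and R9 were left out. In the latter comparison none passed in edgeR and 4 had an unadjusted p under 0.05, against 15.9% of all genes. For 9 of the 12, R7 and R9 were both above the other 6 libraries, against 25.2% of all genes. ACTN1, the actin crosslinker alpha actinin, was at 1333, 1357, 2233.1 and 2233.3 CPM with DMSO, and with progesterone at 969 to 1202 CPM (log2 fold change -0.68, edgeR adjusted p = 0.0726). Like TPM1 it was lower in every progesterone library than in any DMSO library, and without R7 and R9 it was at -0.25 (0.278). It passed when DMSO R1 or R3 was left out (edgeR adjusted p = 0.0247 and 0.0401). Over all genes, 1782 of 13700 passed without R1 and 795 of 13745 without R3, against 359 of 13557 with all libraries. ANKRD1, a stretch-responsive nuclear protein, was at 22.5, 37.7, 67.6 and 78.8 CPM with the vehicle and 14.2 to 25.4 CPM with progesterone. Its log2 fold change was -1.43 (edgeR adjusted p = 0.0749), -0.63 without R7 and R9 (0.265), and -1.67 with a pass without DMSO R1 (0.0151).

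**Figure D5:**
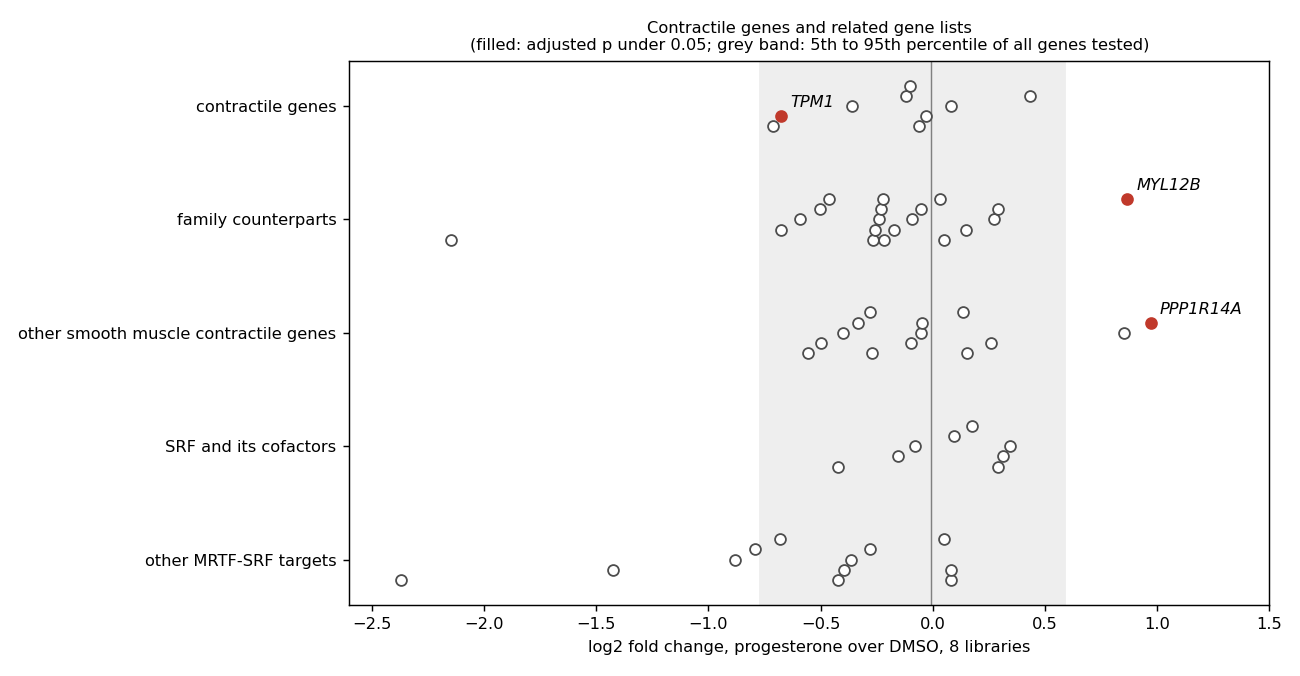
Log2 fold change of progesterone over DMSO with all 8 libraries (horizontal axis) for each tested gene of the contractile set and of 4 related lists (rows); filled red points have an edgeR adjusted p under 0.05, and the grey band spans the 5th to the 95th percentile of all genes tested (-0.77 to 0.59). TPM1 lies inside the band, and MYL12B and PPP1R14A lie outside it.

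Genes whose pattern was most like that of the contractile set were sought over the 6 libraries other than DMSO R7 and R9, by Pearson correlation of log2 CPM with the mean deviation of the 9 tested genes. Among 10767 genes of at least 5 CPM, the highest were DHDDS (0.997), LANCL2 (0.995), COPZ1 (0.992), CTGF (0.992) and FAAP20 (0.988). Over all 8 libraries the correlations were 0.955, 0.457, 0.956, 0.841 and -0.107 in the same order, so the values of LANCL2 and FAAP20 were much lower with R7 and R9 included. With only 6 libraries, all of the same cell line, and so many genes compared, these values are given as a description. CTGF, also called CCN2, is in the list of 12 MRTF and SRF targets chosen here, whose members were not all named above. It was at 372 and 381 CPM in DMSO R1 and R3, 874 and 620 in R7 and R9, and 266 to 340 with progesterone.

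Markers of other cell types were read in the same libraries. Of 7 genes that define differentiated smooth muscle, 5 were tested and none passed in edgeR (unadjusted p under 0.05 for 2, DESeq2 1, voom 0). Over all genes these shares were 26.8%, 13.5% and 2.04%. None of the 7 was at 0 in every library. Their summed level was 18.9 to 72.8 CPM with the vehicle and 20.7 to 27.7 CPM with progesterone. The enteric smooth muscle actin ACTG2 was at 28.3 and 27.2 CPM in R7 and R9, 3.69 and 6.13 in R1 and R3, and 2.26 to 4.60 with progesterone. Desmin (DES), the muscle intermediate filament, was at 9.70 and 9.98 CPM in R7 and R9 and at 3.30 to 5.99 in the others. CASQ2, a calcium-binding protein of the sarcoplasmic reticulum, was at 0.645 and 0.454 CPM in R7 and R9, 0.853 and 1.06 in R1 and R3, and 0.662 to 1.83 with progesterone. The median log2 fold change of the 5 tested genes was -0.50 over the 8 libraries and 0.53 once R7 and R9 were left out. In the latter comparison none passed in edgeR. There 1, SYNPO2, had an unadjusted p under 0.05, against 15.9% of all genes. The values without R7 and R9 were 0.95 for KCNMB1, 0.67 for SYNPO2, 0.53 for CASQ2, 0.14 for DES and -0.40 for ACTG2.

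The 8 fibroblast markers were all tested and none passed in edgeR (unadjusted p under 0.05 for 4, DESeq2 3, voom 0, against 26.8%, 13.5% and 2.04% of all genes). They summed to 7000 to 13753 CPM with the vehicle and 5521 to 6339 CPM with progesterone, a sum carried mostly by COL1A1 and COL1A2. In R7 and R9, 6 of 8 were highest and 2 lowest, against 25.2% and 24% of all genes. Without these libraries none of the 8 passed in edgeR, and 3 had an unadjusted p under 0.05, against 15.9% of all genes. The 10 epithelial markers summed to 2824 to 3077 CPM with the vehicle and 1743 to 2662 CPM with progesterone. This sum is carried mostly by KRT8, which was at 2286 to 2789 and 1348 to 2107 CPM. Of the 8 tested, 4 had a log2 fold change below 0. None passed in edgeR (unadjusted p under 0.05 for 3, DESeq2 3, voom 0, against the same shares of all genes). Without R7 and R9 none of these epithelial markers passed in edgeR, and 2 had an unadjusted p under 0.05, against 15.9% of all genes. Endothelial, leukocyte and pericyte markers summed to at most 6.62, 13.9 and 39.6 CPM in a library. The leukocyte marker PTPRC and the pericyte marker RGS5 were at 0 in every library. The part of these markers in the values of the contractile genes was not tested. In bulk RNA, fewer cells that express a gene and less RNA of it per cell cannot be told apart.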

How the data were processed

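Poly(A) RNA libraries had been prepared with a stranded kit, per the labels' protocols. The authors deposited estimated counts per gene for 8 columns, described by the table's name as length normalized; the sources used here do not say how lengths entered. Salmon 1.4.0, bcl2fastq and the bovine build ARS-UCD1.2 are listed, without their roles, in the submitters' processing notes. Gene models of ARS-UCD2.0 served for synonyms and for overlaps between genes, and no coordinates are printed.

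Counts were rounded. Genes kept by edgeR's filterByExpr (13557) were scaled by TMM and tested with the quasi-likelihood test (edgeR 4.0.16, robust, two-sided; R 4.3.3), with group as the only term and Benjamini-Hochberg adjustment over all genes at 0.05. SE is the log2 fold change divided by the square root of F. Deviations used log2 CPM with a prior count of 2. Within each group, libraries differed beyond sampling noise (chi-square per degree of freedom 14.2 or more). Counts were simulated with 200 of 13557 genes changed and spreads that leave out the distance of R7 and R9. In them 72% of 1.5-fold and 93% of 2-fold changes were recovered, with 12 false calls. The deposited libraries include that distance, so recovery in them was not measured.

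The 10 genes, the related lists, the alternatives and the rule for named genes were chosen with earlier results of these data known. The rule names every contractile gene, the genes past the threshold in each related list or else the 2 with the smallest p, and family counterparts set beside their contractile gene; it also names the 5 genes most like the set. It was not applied to 1 related gene list, whose results are not reported here. TPM4, CNN3, MYL12A, MYH9, MYH10, PXN, ACTG1, SRF, MYOCD, DES and the single markers of cell types were named beyond it, after their values were seen. MRTFA, MRTFB, CCN1 and CCN2 were matched by gene identifier. Alternatives were other scalings, filters and tools (DESeq2 1.42.0, limma voom 3.58.1), unrounded counts, no robust estimation, each library left out, R7 and R9 left out, and the column number as a block.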

Additional observations from a re-analysis of the deposited data

Results flagged for a closer look

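For MYH11, DMSO R7 was far above the other 3 DMSO libraries, at 0.170 CPM (5 counts) against 0.0756 CPM (2 counts) in the next, a gap of 0.927 of the group's range. Of 40 groups of 4 libraries checked over the contractile genes and their family shares, this was the 1 found, and chance gives about 1 in 20. The gap is 3 counts.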

How the results depend on the processing

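Over 19 alternatives, 165 of 171 values of the 9 tested contractile genes kept their direction and 150 also kept their side of the threshold. The signs that turned were those of ACTA2 without progesterone R6 (-0.14 to 0.018 over single libraries left out) and CNN1 without DMSO R3 (-0.23 to 0.037), of MYL9 (-0.034) and TPM2 (0.069) without R7 and R9, and of both with the replicate block (-0.041 and 0.091). The number of contractile genes past the threshold moved from 1 to 3 in DESeq2, to 0 in limma voom, without robust estimation and without R7 and R9, and to between 0 and 3 when 1 library was left out. The cause was not tested. The count over all genes, 359, became 1830 in DESeq2, 162 without R7 and R9 and between 42 and 1782 with 1 library left out. Other scalings gave 2 or 3 contractile genes without overlap, since TAGLN is nearly without it. With the replicate block on the column numbers 3 contractile genes (TPM1, TAGLN and CNN1) and 2531 genes in all passed; only R1 and R3 occur in both groups, so this fit rests on 2 pairs, and whether the numbers pair cultures is not known. Deviations of the same-numbered libraries correlated at 0.226 and 0.210, those of the crossed ones at -0.0675 and -0.0111. With it TPM1 was at -0.33 and TAGLN at -0.30 there. Depth limits only MYH11 here.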
